A study of Saccharomyces cerevisiae with 2 samples.

Results

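The budding yeast genes for small nuclear and small nucleolar RNAs, together with 4 further stable noncoding RNAs, were compared between 1 culture of strain BY4741 treated with 2.5 mM paraquat for 8 h and 1 untreated culture. Both cultures grew to mid-log phase in rich glucose medium, and each gave 1 library. BY4741 is an a-mating-type haploid used in the laboratory that lacks working HIS3, LEU2, MET17 and URA3 genes, so both groups share those deletions. Paraquat is a herbicide that cycles electrons onto oxygen and so makes superoxide inside cells. Members were all rows whose name begins with snR, plus LSR1, NME1, RPR1, SCR1 and TLC1, which gave 85 of 6142 named rows. They fall into 47 box C/D and 29 box H/ACA small nucleolar RNAs (snoRNAs), 5 spliceosomal RNAs and 4 others, and the class of all 85 was the one that the RefSeq notes give. The short form of the U5 RNA, snR7-S, was not analysed here. Of the markers of a cells, the receptor gene STE2 had 84794 normalized reads after paraquat and 105963 untreated, the pheromone gene MFA1 21269 after paraquat and 31789 untreated and the protease gene BAR1 23749 after paraquat and 51639 untreated. Of the markers of alpha cells, the receptor gene STE3 had 1175 after paraquat and 719 untreated, and was 1.63-fold higher (1.49 to 1.80), and the pheromone gene MF(ALPHA)1 had 42.0 after paraquat and 54.8 untreated. HIS3, which BY4741 lacks only in part, had 12482 after paraquat and 17852 untreated, and LEU2, MET17 and URA3 were not analysed here.

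SnoRNAs stay in the nucleolus as RNA-protein particles that pair with ribosomal RNA. Box C/D snoRNAs direct methylation of the ribose, box H/ACA snoRNAs direct the change of uridine to pseudouridine, and a few of both kinds are needed to cut the ribosomal precursor rather than to modify it. Spliceosomal RNAs form the core of the particles that remove introns. In yeast most snoRNA genes have their own promoter, some snoRNAs are cut out of the introns of protein genes, and some are cut in groups from a shared precursor.

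The sequences that carry the class and the transcription unit are given first, as DNA letters of the RNA strand from the RefSeq R64 genes of the same name. The snoRNAs of the longest shared precursor are shown in order of transcription because their values parted from those of other members. Capitals mark TGATGA in the first 30 bases (box C) and the last CTGA in the final 30 bases (box D), and snR76 and snR74 have no TGATGA in that window. Searched on the RNA strand alone, TGATGA stood in that window in 37 of 47 box C/D and 1 of 29 box H/ACA snoRNAs, and in 1.52% of all genome windows of 30 bases on both strands. CTGA stood in its window in 45 of 47 and 2 of 29, and in 9.18% of genome windows of that length, and CTGA and TGATGA overlap where a C stands before TGATGA.
snR78: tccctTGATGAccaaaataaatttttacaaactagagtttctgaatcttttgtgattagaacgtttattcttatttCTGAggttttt
snR77: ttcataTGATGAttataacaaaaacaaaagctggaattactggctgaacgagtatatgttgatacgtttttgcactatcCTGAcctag
snR76: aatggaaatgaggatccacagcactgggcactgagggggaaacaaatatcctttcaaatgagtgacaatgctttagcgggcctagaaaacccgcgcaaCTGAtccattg
snR75: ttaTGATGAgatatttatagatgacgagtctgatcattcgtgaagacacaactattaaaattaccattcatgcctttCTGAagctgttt
snR74: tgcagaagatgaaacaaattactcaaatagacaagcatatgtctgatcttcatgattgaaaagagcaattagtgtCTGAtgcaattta
snR73: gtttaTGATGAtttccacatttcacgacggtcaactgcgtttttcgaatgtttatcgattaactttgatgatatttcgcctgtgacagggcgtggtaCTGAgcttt
snR72: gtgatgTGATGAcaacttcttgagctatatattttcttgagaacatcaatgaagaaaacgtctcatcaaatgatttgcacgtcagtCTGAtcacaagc

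For comparison, snR13 is a box C/D guide with its own promoter and snR128 (U14) is the last snoRNA of another shared precursor, both at least 2-fold higher after paraquat and with the same marks in capitals. The box H/ACA guides snR34 and snR35 were also at least 2-fold higher. Their capitals mark the ACA that stands 3 bases before the end, which was found there in 14 of 29 box H/ACA and 3 of 47 box C/D snoRNAs, and as 1.72% of genome windows of 3 bases on both strands. A missing match says only that the letters are not at that place of the annotated gene. The last pair are the U6 RNA snR6, with its ACAGAG element in capitals, and the U4 RNA snR14, which pairs with U6 and has its ATTTTTG element, the binding site of the Sm protein ring, in capitals. ATTTTTG was found on the RNA strand of 3 of 5 spliceosomal RNAs. It also stood in 1 of 47 box C/D, 2 of 29 box H/ACA and 1 of 4 other RNAs. The share was 5.45% of genome windows of 214 bases, and LSR1 and snR19, at 1175 and 568 bases, are longer than that. ACAGAG was found in 1 of 5 spliceosomal RNAs, 1 of 47 box C/D, 1 of 29 box H/ACA and 1 of 4 other RNAs. It stood in 2.29% of windows of 112 bases, again on both strands, and it begins with the letters ACA.
snR13: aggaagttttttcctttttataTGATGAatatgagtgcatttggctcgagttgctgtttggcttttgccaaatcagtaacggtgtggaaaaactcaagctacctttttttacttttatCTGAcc
snR128: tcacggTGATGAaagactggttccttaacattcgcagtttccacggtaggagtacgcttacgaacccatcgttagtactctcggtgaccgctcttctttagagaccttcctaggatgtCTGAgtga
snR34: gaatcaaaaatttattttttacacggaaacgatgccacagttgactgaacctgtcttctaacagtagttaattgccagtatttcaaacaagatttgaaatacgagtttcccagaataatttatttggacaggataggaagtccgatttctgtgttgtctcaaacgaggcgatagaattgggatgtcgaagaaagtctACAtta
snR35: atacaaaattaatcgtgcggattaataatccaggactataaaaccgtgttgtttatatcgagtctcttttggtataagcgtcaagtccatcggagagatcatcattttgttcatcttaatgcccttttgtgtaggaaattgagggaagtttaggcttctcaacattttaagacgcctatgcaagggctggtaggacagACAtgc
snR6: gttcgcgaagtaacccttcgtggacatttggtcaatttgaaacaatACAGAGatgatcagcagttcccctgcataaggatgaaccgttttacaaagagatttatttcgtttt
snR14: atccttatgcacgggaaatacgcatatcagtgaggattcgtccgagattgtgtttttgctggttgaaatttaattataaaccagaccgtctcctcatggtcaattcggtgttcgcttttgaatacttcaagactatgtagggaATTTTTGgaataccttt

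Each value below is a normalized read count, that is, reads divided by 1 size factor per library, and each fold is the paraquat value over the untreated value unless "lower" is written. Reads on named genes numbered 165264107 after paraquat and 164909400 untreated. Ranges beside folds are exact binomial 95% intervals of the read split, which cover counting error only. With 1 library per group no difference has a replicate check, no test across genes was possible, and because no time is labelled for the untreated culture, growth time and paraquat cannot be told apart. Fewer cells with an RNA and less RNA per cell cannot be told apart either. The labels name total RNA as the starting material and the design text speaks of messenger RNA profiles. No source at hand says whether poly(A) RNA was selected. The labels' protocols name the RNeasy kit for purification, and how fully that step kept short RNAs was not tested. Median annotated length was 161 bases over all members, 98 for box C/D and 204 for box H/ACA snoRNAs. Loss of short RNAs could therefore bear on most members and on the class and transcription-unit contrasts below. The part of poly(A) or size selection in the values was not tested.

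After paraquat most small nuclear and nucleolar RNAs were higher, and those cut from shared precursors were the main exception. Of 85 members 74 lay above 0 on the log2 scale, 19 were higher by 2-fold or more and 1 was lower by as much, with all 85 above the minimum mean of 50 normalized reads. Among all 5973 named genes above that minimum, 49.7% lay above 0, 3.08% were higher by 2-fold or more and 1.52% lower by as much. The members' median log2 change was 0.61, a 1.53-fold difference, and that of all named genes was 0.00. At a limit of 1.5-fold, 45 members were higher and 4 lower, where 7.75% and 5.88% of all named genes passed. The counting interval lay wholly above 1 for 65 members and wholly below 1 for 9. At this depth that was usual, with 42.6% of all named genes wholly above 1 and 44% wholly below 1. Just inside the 2-fold limit were snR46 at 2.02-fold and snR17b at 2.02-fold, and just outside it snR86 at 1.93-fold and snR161 at 1.91-fold.

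Together the members took 0.211% of paraquat reads and 0.105% of untreated reads on named genes. The deposited size factors can be exchanged for each library's total of gene reads (the total-read scale), which moves every log2 value up by 0.26. On that scale the median of the members was 0.87 and that of all named genes 0.26, and 35 members were at least 2-fold higher where 5.22% of all named genes were. Of the 11 members below 0 in the deposited scaling, snR67, snR190, snR41 and snR70 then lay above 0.

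**Figure D1:**
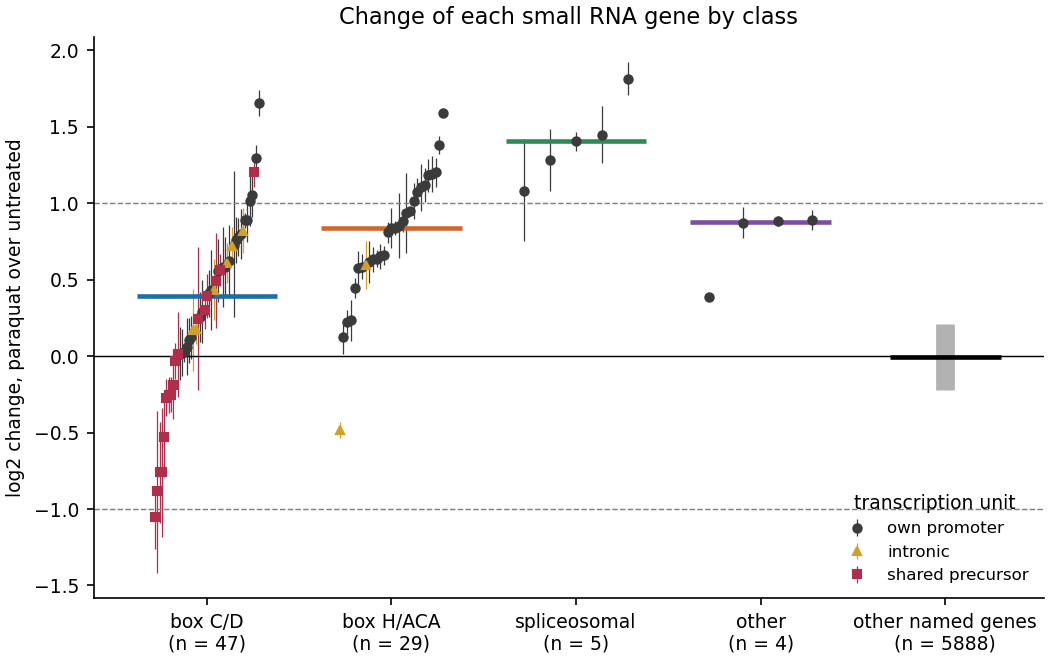
Log2 change (paraquat over untreated) of each of the 85 members by class, with 95% counting intervals; marker shapes show the transcription unit and coloured bars the class medians. The grey bar spans the middle 50% of the 5888 other named genes and dashed lines mark 2-fold. All 5 spliceosomal RNAs lie above the upper dashed line, and 10 of the 11 members below 0 belong to shared precursors.

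The spliceosomal RNAs had the highest median of the 4 classes, 1.40 over 5 genes, and all 5 were at least 2-fold higher, against 3.08% of all named genes. U1 (snR19), which recognises the start of the intron, had 3418 normalized reads in the paraquat library, against 972 in the untreated library. That was 3.51-fold higher (3.27 to 3.79), the highest value of all 85 members. U6 (snR6), which takes part in catalysis, had 917 normalized reads after paraquat and 336 untreated and was 2.73-fold higher (2.40 to 3.11). U2 (LSR1), which pairs with the branch point, had 7462 after paraquat and 2822 untreated and was 2.64-fold higher (2.53 to 2.77). The intervals of these 3 RNAs lay wholly beyond 2-fold.

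U4 (snR14), the partner that holds U6 until the spliceosome is activated, had 733 normalized reads after paraquat, against 302 untreated, and was 2.43-fold higher (2.11 to 2.79). The long form of U5 (snR7-L), which holds the exons in place, had 250.2 after paraquat and 118 untreated and was 2.12-fold higher (1.69 to 2.67), so its interval reached below 2-fold. The short form of U5 overlaps snR7-L on the same strand in the annotation, so how reads were assigned between both forms is uncertain. U6 is made by RNA polymerase III and the other 4 by RNA polymerase II, and both kinds were higher.

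Box H/ACA snoRNAs were higher nearly throughout. Of 29, 28 lay above 0, with 9 higher by 2-fold or more and 0 lower by as much, against 3.08% and 1.52% of all named genes, and their median log2 change was 0.83. The highest was snR30, an essential snoRNA needed for cleavage of the ribosomal precursor, with 33648 normalized reads in the paraquat library, against 11161 in the untreated library. It was 3.01-fold higher (2.95 to 3.08). Next came snR37, a large-subunit guide that RefSeq also gives a structural role in early large-subunit assembly, with 8924 normalized reads after paraquat and 3434 untreated, 2.60-fold higher (2.50 to 2.71). The large-subunit guides snR42, snR3 and snR34 followed at 2.30-fold, 2.28-fold and 2.27-fold higher.

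The other H/ACA snoRNAs past 2-fold were snR32 (2.17-fold) and snR46 (2.02-fold), both large-subunit guides, snR189 (2.15-fold), which guides in both subunits, and snR35 (2.11-fold), a predicted small-subunit guide. The interval lay wholly beyond 2-fold for all but snR46, snR189 and snR35. At the low end, snR44, an intronic snoRNA, was the 1 member of the class below 0, with 4925 normalized reads in the paraquat library, against 6891 in the untreated library, 1.40-fold lower (1.35 to 1.45). The lowest values above it were snR43 at 1.09-fold (1.01 to 1.17), snR84 at 1.17-fold, snR81 at 1.18-fold and snR31 at 1.36-fold higher. All of these guide pseudouridines in ribosomal RNA, and snR81 is also noted as a guide for U2.

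Box C/D snoRNAs were more widely spread, from -1.05 to 1.65 on the log2 scale with a median of 0.39. Of 47, 37 lay above 0, with 5 higher by 2-fold or more and 1 lower by as much, where 49.7%, 3.08% and 1.52% of all named genes did so. The count of 1 lower is near that share. Split by transcription unit, the 24 with their own promoter had a median of 0.58 and all lay above 0, the 6 in introns had a median of 0.52 and all lay above 0, and the 17 of shared precursors had a median of -0.19, which turns to 0.07 on the total-read scale.

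**Figure D2:**
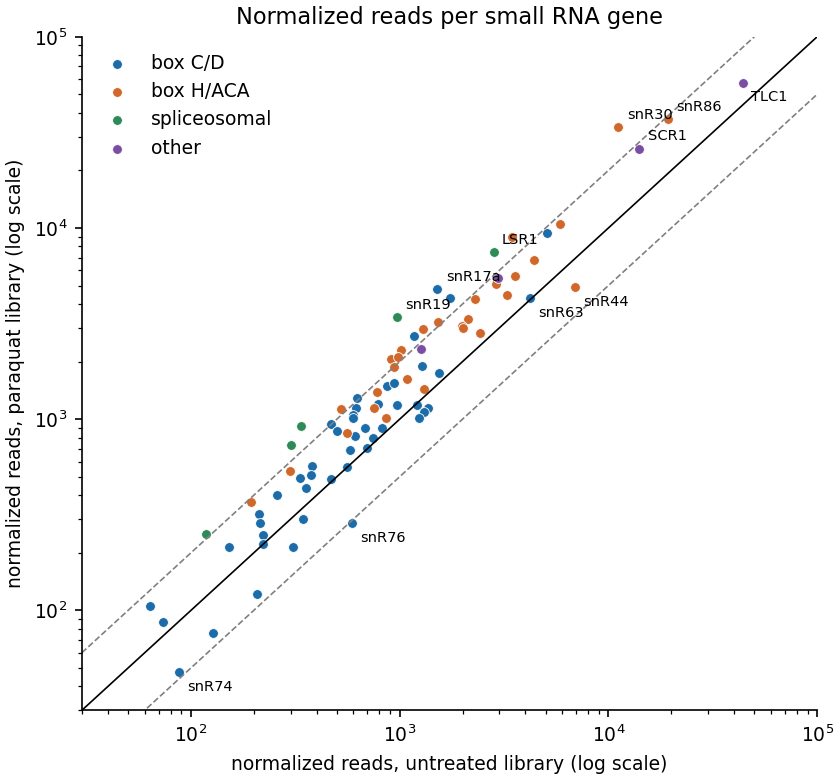
Normalized reads of each member in the paraquat library (vertical, log scale) against the untreated library (horizontal, log scale), coloured by class; the solid line marks equal values and dashed lines 2-fold. Most points of all 4 classes lie above the solid line. The lowest level is that of snR74 after paraquat (47.5) and of snR52 untreated (63.5), and TLC1 is highest in both libraries, at 57567 after paraquat and 43963 untreated.

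The highest box C/D member was snR17a, 1 of the 2 genes for U3, the snoRNA at the centre of the particle that processes the small-subunit precursor. It had 4776 normalized reads in the paraquat library, against 1517 in the untreated library, and was 3.15-fold higher (2.97 to 3.34). The other U3 gene, snR17b, had 941 normalized reads after paraquat and 467 untreated and was 2.02-fold higher (1.80 to 2.26). The annotated genes are 81.6% identical over their aligned length, so the split between them is uncertain, and the sum of both was 2.88-fold higher (2.74 to 3.04). U3 came mainly from snR17a in both libraries, with 83.5% of the sum after paraquat and 76.5% untreated.

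Among the other box C/D members past 2-fold, snR13, a large-subunit methylation guide, had 4285 normalized reads in the paraquat library, against 1746 in the untreated library, 2.45-fold higher (2.32 to 2.60). U14 (snR128), which is essential for releasing the small-subunit precursor, had 2715 after paraquat and 1177 untreated, 2.31-fold higher (2.15 to 2.48). The acetylation guide snR45, which directs the enzyme Kre33, had 1298 after paraquat and 625 untreated, 2.08-fold higher (1.88 to 2.29). The second acetylation guide, snR4, was just under the limit at 9380.1 after paraquat and 5070.2 untreated, 1.85-fold higher (1.79 to 1.92). The interval lay wholly beyond 2-fold for snR17a, snR13 and U14 and not for snR45 or snR17b. The lowest own-promoter box C/D snoRNAs were the methylation guides snR40, snR62, snR63 and snR69, at 1.01-fold to 1.04-fold, each with an interval that includes 1.

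Members that RefSeq notes describe as needed for cleavage or processing of the ribosomal precursor were all on the high side, a set read from the notes after the values were seen. They were snR17a, snR30, U14 and snR17b, given above, and snR10, an H/ACA snoRNA with 4232 normalized reads after paraquat and 2294 untreated, 1.84-fold higher (1.75 to 1.94). NME1, the RNA of RNase MRP, which also cuts that precursor, had 2318 after paraquat and 1267 untreated and was 1.83-fold higher (1.71 to 1.96). U14 and snR10 are modification guides as well. Own-promoter guides all lay above 0 too, 31 of 31 for the large subunit, 9 of 9 for the small subunit and 6 of 6 for both.

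The remaining class holds 4 RNAs of other particles, and all lay above 0 with none past 2-fold. That count is near the share of all named genes, 3.08% upward and 1.52% downward. RPR1, the RNA of nuclear RNase P that trims transfer RNAs, had 5457 normalized reads in the paraquat library, against 2951 in the untreated library, 1.85-fold higher (1.77 to 1.94). SCR1, the RNA of the signal recognition particle that brings secretory ribosomes to the membrane, had 25933 after paraquat and 14064 untreated, 1.84-fold higher (1.81 to 1.88). RPR1, SCR1 and NME1 thus lay within 1.83-fold to 1.85-fold. TLC1, the template RNA of telomerase, had 57567 after paraquat and 43963 untreated and was 1.31-fold higher (1.29 to 1.33). On the total-read scale, where 5.22% of all named genes were at least 2-fold higher, RPR1, SCR1 and NME1 passed 2-fold and TLC1 did not.

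Grouped by transcription unit over all classes, the 60 members with their own promoter all lay above 0, with a median log2 change of 0.80 and 18 at least 2-fold higher. The 8 intronic members had a median of 0.51 with 7 above 0 and 0 past 2-fold. The 17 of shared precursors had 7 above 0 (11 on the total-read scale), 1 past 2-fold upward (U14) and 1 downward (snR76). Over all named genes 3.08% passed 2-fold upward and 1.52% downward, so the counts of the intronic and shared-precursor members are near that share. These groups are unequal in class and length: the median annotated length was 188 bases with an own promoter, 92 in introns and 95 in shared precursors, and all 17 of the last are box C/D. The difference between the groups was not tested. The intron or neighbour position of all 25 was found in the RefSeq annotation, which also places snR66 just after NME1, a pair counted here as separate genes.

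Among the intronic snoRNAs the RNA was higher, relative to untreated, than the transcript of its host gene in all 8 pairs, by 0.27 to 1.53 on the log2 scale with a median of 0.89. The largest gap was at snR24, a large-subunit methylation guide, with 510.5 normalized reads after paraquat and 378 untreated (log2 0.43). Its host ASC1, a ribosome-bound scaffold protein gene, had 285100 after paraquat and 611172 untreated (log2 -1.10). The snoRNA thus lay above 0 where its host was at least 2-fold lower. All 8 snoRNAs lie in the host's intron on the same strand, so their rows can also hold reads of unspliced host transcript. That part was not tested. Per kilobase, snoRNA over host ran from 0.0067 (snR24) to 0.24 (snR44) untreated. After paraquat it ran from 0.019 to 0.43 for the same 2 snoRNAs.

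Hosts encoding translation factors or ribosomal proteins gave further pairs of opposite sign. In TEF4, a gene of the elongation factor that reloads the ribosome's transfer RNA carrier, snR38 was at 0.82 and the host at -0.37. In the ribosomal protein gene RPL7A, snR39 was at 0.72 and the host at -0.70, and in its paralog RPL7B, snR59 was at 0.17 with an interval that includes 0 and the host at -0.43. The elongation factor gene EFB1 was at -0.44 and its snR18 at 0.18. The purine synthesis gene IMD4 was at -0.35 and its snR54 at 0.61.

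In the last pairs both RNAs shared a sign. The ribosomal protein gene RPS22B, at -1.31, had the lowest host value, and its snR44 at -0.48 was the 1 intronic snoRNA below 0. The ribosome assembly gene NOG2, at 0.33, was the 1 host above 0, and its snR191 was at 0.59. On the total-read scale IMD4 and TEF4 stayed below 0, as did the other hosts except NOG2, and snR44 stayed below 0.

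**Figure D3:**
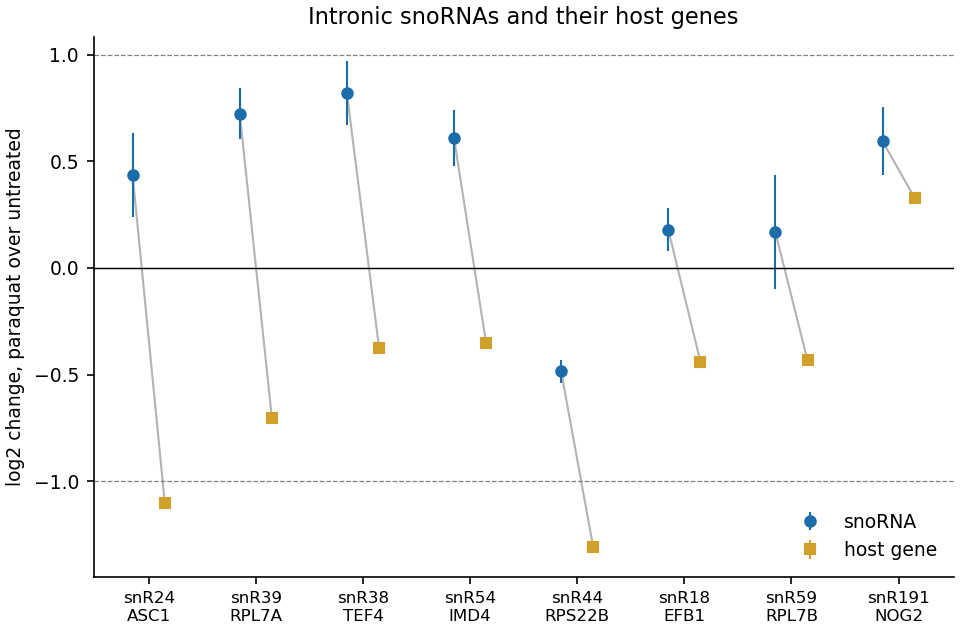
Log2 change (paraquat over untreated) of the 8 intronic snoRNAs (circles, left of each pair) and of their host genes (squares, right), with 95% counting intervals, ordered by the gap. In every pair the snoRNA lies above its host, and 7 of 8 hosts lie below 0.

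The shared precursors held 10 of the 11 members below 0. In the longest, which runs from snR78 to snR72, snR76, a large-subunit methylation guide, had 285 normalized reads in the paraquat library, against 591 in the untreated library. It was 2.08-fold lower (1.80 to 2.39), the lowest value of all members, and did not reach 2-fold on the total-read scale. The guides snR74 (47.5 normalized reads after paraquat and 87.6 untreated, log2 -0.88), snR78 (122 after paraquat and 207 untreated, log2 -0.76) and snR75 (75.8 after paraquat and 128 untreated, log2 -0.76) were also lower, with intervals wholly below 1. From the same precursor snR73 was level at 223 after paraquat and 221 untreated (log2 0.01), while snR77 was higher at 894 after paraquat and 681 untreated (log2 0.39). The last snoRNA, snR72, was the highest of the 7 at 214 after paraquat and 152 untreated (log2 0.49).

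The other precursors also gave unequal values from 1 transcript, but in snR67-snR53 the intervals overlapped. From snR190-snR128, snR190 had 302 normalized reads after paraquat and 344 untreated (log2 -0.19, interval including 0), beside U14 at 1.21. In snR57-snR55-snR61, snR57 (1019 after paraquat and 1231 untreated, log2 -0.27) and snR55 (214 after paraquat and 309 untreated, log2 -0.53) were lower and snR61 (1886 after paraquat and 1275 untreated, log2 0.56) was higher. In snR41-snR70-snR51, snR41 (1143 after paraquat and 1363 untreated) and snR70 (1096 after paraquat and 1308 untreated) were both at -0.25, which turns to just above 0 on the total-read scale, and snR51 (1193 after paraquat and 967 untreated) was at 0.30. In snR67-snR53, snR67 was at -0.03 and snR53 at 0.24, and both intervals include 0. These members guide ribose methylation of ribosomal RNA or are predicted to, and RefSeq notes snR190 as not shown to be active.

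In all 5 shared precursors the last snoRNA in order of transcription had the highest log2 change, a pattern noticed in the values and not tested. The 5 last snoRNAs all lay above 0 with a median of 0.49, and 2 of the 12 earlier ones lay above 0, with a median of -0.26. On the total-read scale, 6 of the 12 earlier ones lay above 0 and their median was -0.005. The order within a precursor does not depend on the scaling. The interval of the last snoRNA was apart from that of the next highest in 3 precursors and overlapped it in snR67-snR53 and in the precursor of snR78 to snR72, where snR77 came next. Low counts limit several of these, with snR74 at 52 and 80 reads and snR53 at 95 and 67 reads in the paraquat and untreated libraries.

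**Figure D4:**
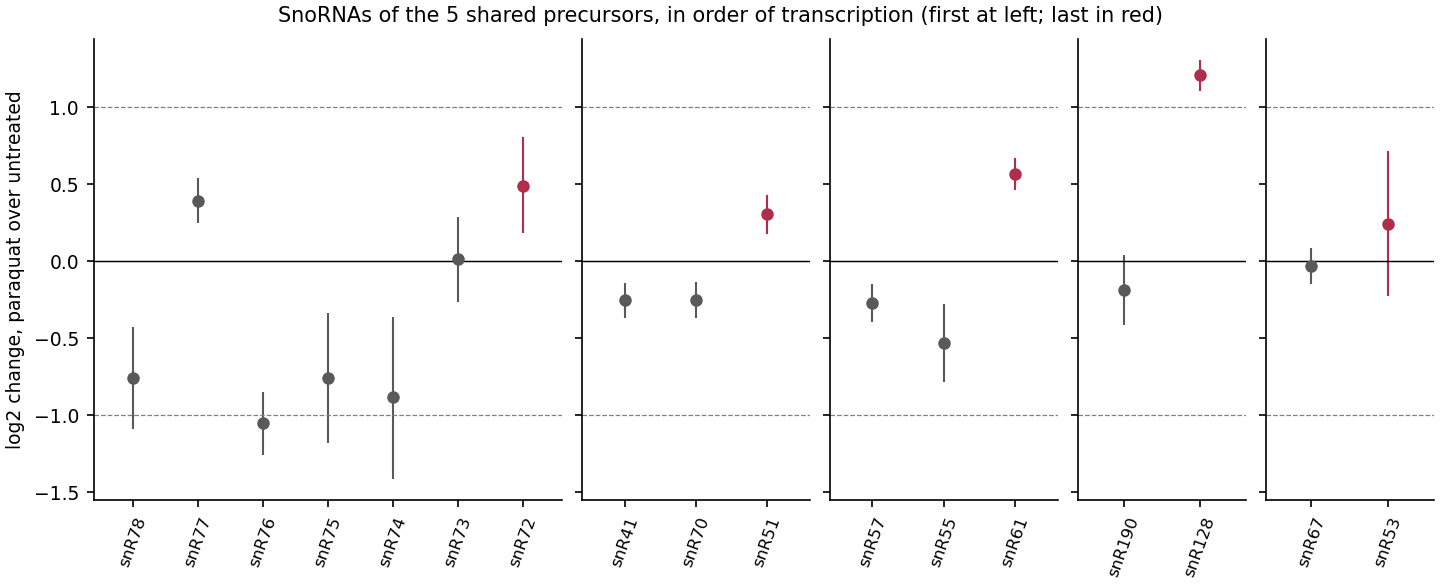
Log2 change (paraquat over untreated, deposited scaling) of the snoRNAs in each of the 5 shared precursors, in order of transcription, with 95% counting intervals; dashed lines mark 2-fold. The last snoRNA of each precursor, in red, is its highest point; on the total-read scale all points move up by 0.26, which takes snR67, snR190, snR41 and snR70 above 0.

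Over all classes together, longer members tended to have higher values. Over the 85 members the correlation of log2 change with log2 annotated length was r = 0.46 and rho = 0.48, given as a description because all points share both libraries. Within the 60 own-promoter members r was 0.39 and rho 0.38. Within the 47 box C/D snoRNAs r was 0.34 and rho 0.17, and within the 29 box H/ACA snoRNAs r was 0.19 and rho 0.04. With log2 mean normalized reads in place of length, r was 0.41 and rho 0.40 over the 85 members. Own-promoter members under 110 bases had a median log2 change of 0.49 (n = 16), and those of at least 250 bases had 0.89 (n = 17). Protein-coding genes with annotated coding lengths under 110 bases had a median of 0.23 (n = 22), those from 110 to under 190 bases 0.09 (n = 66) and those from 190 to under 250 bases 0.09 (n = 96). Own-promoter members in the last pair of ranges had medians of 0.87 (n = 16) and 0.88 (n = 11). Length moved with the values over all members, more weakly within each snoRNA class, and its part in them was not tested.

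**Figure D5:**
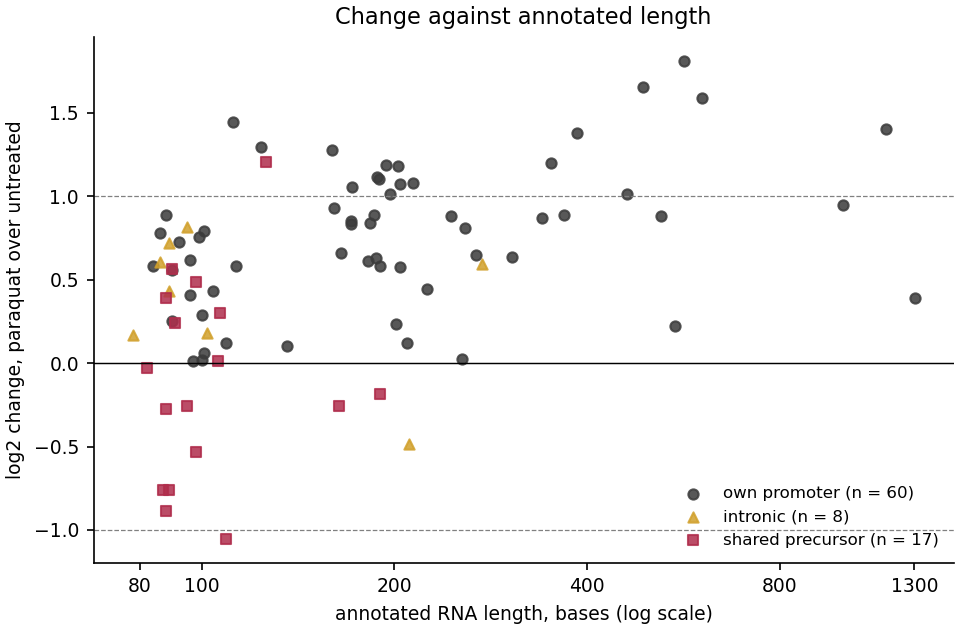
Log2 change (paraquat over untreated) of the 85 members against annotated RNA length (log scale), with symbols by transcription unit. Own-promoter members lie above 0 at every length, and the shared-precursor members below 0 lie among the shorter RNAs, from 82 to 190 bases.

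Per kilobase of annotated length the members spanned 539.6 to 57505 normalized reads after paraquat and 553 to 33792 untreated. Their median was 8252 after paraquat and 5425 untreated, and that of protein-coding genes, per kilobase of coding length, was 7647 after paraquat and 7624 untreated. The highest levels per kilobase after paraquat were those of snR33 (57505), snR30 (55524) and snR4 (50431), then SCR1 (49680.3) and TLC1 (44248). Untreated, the order was TLC1 (33792), snR44 (32660.5), snR33 (32158), snR4 (27259) and SCR1 (26943). With 1 library per group the spread behind these orders is unknown. TLC1, known as a scarce RNA in yeast, stood above U3 from snR17a, known as an abundant one. The snR17a row had 9747 after paraquat and 3095 untreated per kilobase of annotated gene, whose length counts the intron of U3. The orders and medians above thus describe reads and cannot be taken as amounts of the mature RNAs in cells.

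Genes beside the members had values near the median of all genes. The nearest protein-coding genes on either side, 135 in all above the minimum mean, had a median log2 change of -0.04, with 3 past 2-fold upward and 1 downward, near the 3.08% and 1.52% of all named genes. Outside introns and the U5 pair, 3 members overlap another annotated open reading frame on the same strand, snR17a with IRC13, snR10 with YGL088W and snR60 with YJL047C-A. Those rows held 20.1, 19.2 and 1366 normalized reads after paraquat and 13.1, 9.86 and 963 untreated, and of these YJL047C-A alone held more than its member, snR60 at 288 after paraquat and 214 untreated.

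Genes for the proteins of these particles stayed within 2-fold, 106 of 106, with a median log2 change of -0.02. Of all named genes 3.08% passed 2-fold upward and 1.52% downward, so the share past it was lower in these lists, a difference not tested. All 4 core proteins of box C/D particles lay below 0 (median -0.21), with the methyltransferase gene NOP1 at -0.15 and the kink-turn binding protein gene SNU13 lowest at -0.69, but NOP1, NOP56 and NOP58 turned above 0 on the total-read scale. Of the 4 core proteins of box H/ACA particles NOP10 lay above 0 at 0.33 and the others below, the pseudouridine synthase gene CBF5 at -0.41 and GAR1 lowest at -0.45. Assembly factors of both particles ranged from PIH1 at -0.48 to BCD1 at 0.36 with a median of -0.04 over 10 genes.

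Factors that cut, cap, end and trim snoRNAs had a median of 0.09 over 18 genes. RNT1, the endonuclease that cuts snoRNA precursors apart, was at 0.07 and RRP6, the nuclear exosome nuclease that trims their ends, at 0.27. The list ran from the helicase gene MTR4 at -0.31 to AIR2, a subunit of the complex that adds short tails for decay, at 0.36. Sm and Lsm ring proteins had a median of 0.00 over 14, from LSM3 at -0.42 to SMD2 at 0.46, and other spliceosomal particle proteins -0.03 over 31, from PRP11 at -0.58 to RDS3 at 0.45. These spliceosomal lists thus stayed near the median of all genes beside their 5 RNAs at 1.40.

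Proteins of RNase P and RNase MRP had a median of 0.11 over 11, from POP8 at -0.33 to POP5 at 0.68, beside RPR1 at 0.89 and NME1 at 0.87. All 6 proteins of the signal recognition particle lay below 0 (median -0.25, 3 of 6 above 0 on the total-read scale), from SRP21 at -0.39 to SRP68 at -0.09, beside SCR1 at 0.88. Telomerase and telomere-end proteins had a median of 0.06 over 8, from YKU70 at -0.51 to the reverse transcriptase gene EST2 at 0.36, beside TLC1 at 0.39.

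By the adjusted p of the authors' deposited table, 0 of 85 members and 0% of all named rows were under 0.05. The authors' deposited table gave 6 members an unadjusted p under 0.05, all of them higher after paraquat, where 1.4% of all named rows were higher with such a p. These were snR19, snR30, snR17a, LSR1, snR37 and snR13. That table compares a single library with a single library, with no replicate culture behind it.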

How the data were processed

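RNA from a paraquat-treated and an untreated yeast culture was sequenced, and groups were taken from the treatment labels. Total RNA was purified with the RNeasy kit and made into Illumina libraries, per the labels' protocols. Named without role or order in the submitters' processing notes are DESeq2, featureCounts, STAR 2.5.2b, Subread 1.5.2 and Trimmomatic 0.36. Genome build, annotation, strand and poly(A) selection were details not given in the sources used here.

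A normalized signal per gene and library was deposited. Every value was a whole multiple of 1 step per column (0.913 units in the paraquat and 1.10 in the untreated library, within 0.01 read), which gave the reads behind each value. The authors' log2 values match the paraquat signal over the untreated signal. Each p-value named is the authors' own, unchanged. A row without a name (0.00675% of paraquat and 0.00449% of untreated reads) was left out.

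Folds are ratios of normalized values with exact Clopper-Pearson 95% intervals, which take reads as independent molecules. Called means at least 2-fold where the mean normalized signal reaches 50. Members matched RefSeq R64 by name (85 of 85), which gave lengths, notes, introns, neighbours and sequences. No coordinates are given. Members, lists and comparisons were chosen with earlier results of these data known. Named members are the 2 smaller classes, the 5 highest and lowest of each snoRNA class, those past 2-fold, intronic and shared-precursor members, the highest per length and the extremes of each protein list, and others named were chosen after their values were seen. Alternatives were scaling to total reads, centring, pseudocounts of 1 and 10, a minimum mean of 0 or 200, a 1.5-fold limit, intervals beyond 2-fold, means, and leaving out copies and overlaps. The fold rule was also run on simulated reads with planted changes, which carried counting error and no variation between cultures. That run therefore cannot show how the calls would hold in other cultures. Tools were Python 3.11.15, numpy 2.4.6, pandas 2.3.3, scipy 1.17.1, matplotlib 3.10.9, Biopython 1.88 and BLAST+ 2.17.0.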

Additional observations from a re-analysis of the deposited data

How the results depend on the processing

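On the total-read scale the counts, 19 higher and 1 lower as deposited, became 35 and 0, through the shift of every value. On that scale 5.22% of all named genes were at least 2-fold higher. Box C/D then had 11 higher and 0 lower, box H/ACA 16 higher and the other RNAs 3, and the medians became 0.87 for all members, 0.65 for box C/D, 1.09 for box H/ACA, 1.66 for spliceosomal and 1.14 for other RNAs. With a 1.5-fold limit, 45 members were higher and 4 lower, with 15 and 4 in box C/D, 22 higher in box H/ACA and 3 among other RNAs. Intervals wholly beyond 2-fold left 13 members higher, 3 of them box C/D, and 0 lower in all and 0 in box C/D. The share of all named genes by that rule was not taken. It can be at most 3.08% upward and 1.52% downward, because the fold itself must also pass 2-fold. Without the 13 members that have a similar copy or overlap another gene, 3 box C/D members were higher, because U3 leaves the set. The mean of the other RNAs was 0.76. Centring on the median gene, both pseudocounts and both other minimum means kept the median of all members between 0.60 and 0.63 and moved no count by over 1.5 times. No paired analysis was possible because each group has 1 library. Depth limits the members with few reads, such as snR74, snR75 and snR53, and no setting stands in for replicate cultures.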

Other observations

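By the ribosomal RNA that the RefSeq notes name as target, snoRNAs guiding in the large subunit had a median log2 change of 0.56 (n = 45), those guiding in the small subunit 0.51 (n = 18) and those guiding in both 0.69 (n = 8). The 5 with no methylation or pseudouridine guide note, which are both U3 genes, snR30 and the acetylation guides snR4 and snR45, had a median of 1.05 and all lay above 0. With own promoters alone the medians were 0.62 (n = 31), 0.64 (n = 9) and 0.74 (n = 6). The 4 members made by RNA polymerase III, snR6, snR52, RPR1 and SCR1, ran from 0.73 to 1.45 on the log2 scale, inside the range of the 81 made by RNA polymerase II. The guides snR39 and snR59, which RefSeq gives the same target base, are 74.4% identical over their aligned length and lay at 0.72 and 0.17.

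Rows for the ribosomal precursor that these snoRNAs act on held few reads, 105 normalized reads after paraquat and 67.9 untreated for RDN37-1, and 85.8 after paraquat and 61.3 untreated for RDN37-2. How reads were assigned between these rows is not given in the sources used here, so they do not measure the level of the precursor. Of 5 further noncoding rows that are no members, 4 lay above 0. The mitochondrial large ribosomal RNA, 21S_RRNA, had 10665 after paraquat and 5318 untreated, just past 2-fold higher, and SRG1, whose transcription represses the serine synthesis gene SER3, had 14689 after paraquat and 8235 untreated (log2 0.83). The mitochondrial small ribosomal RNA, 15S_RRNA, had 163 after paraquat and 111 untreated (log2 0.56) and RPM1, the RNA of mitochondrial RNase P, 16.4 after paraquat and 11.0 untreated (log2 0.59). HRA1, which RefSeq links to ribosomal RNA processing, had 858 after paraquat and 969 untreated (log2 -0.18). RPM1 lies under the minimum mean of 50 normalized reads, and 49.7% of all named genes above that minimum lay above 0. These few rows do not stand for all noncoding genes outside the members.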
